A study of Caenorhabditis elegans with 2 samples.

Results

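The troponin and tropomyosin genes of Caenorhabditis elegans were described here as they appear in RNA recovered with CAR-1. They were chosen by name: 4 troponin T genes (mup-2, tnt-2, tnt-3 and tnt-4), 3 troponin I genes (unc-27, tni-1 and tni-3), 2 troponin C genes (pat-10 and tnc-2) and the tropomyosin gene lev-11. These are 10 of the 41560 genes in the expression tables, and every listed peak that overlapped 1 of their loci by at least 1 base was taken with them, which gave 131 of 105255 peaks of the CAR-1(dSm) list and 116 of 77986 peaks of the CAR-1(FL) list. The rule that picks them uses no measured value, though the set was drawn up with earlier results of these data known.

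The assay was seCLIP-seq, in which RNA crosslinked to a protein is fragmented, pulled down with it and read from one end. CAR-1 is an RNA-binding protein of RNA granules, and the study's title links it to axon regrowth and mitochondrial calcium. There were 2 groups of 1 library each: CAR-1(dSm) from strain CZ26430 and CAR-1(FL) from strain CZ25180, both pulled down with GFP-trap beads, which bind GFP. The comparison asks which RNAs were recovered more or less with the form labelled dSm than with the form labelled FL. What dSm removes, the promoter and tissue of the tagged protein, other alleles of the strains, the developmental stage and the number of animals are not stated in the sources at hand.

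With 1 library per group there is no replicate, so no test was run and every difference below describes these 2 libraries. Whole animals hold many tissues, and in such bulk material fewer cells of a type, less RNA per cell and less RNA bound cannot be told apart; no input library was used here. The read totals behind the peak folds were 5470606 for CAR-1(dSm) and 4022150 for CAR-1(FL). Markers of body wall muscle summed to 15.4 FPKM in CAR-1(dSm) and 21.2 FPKM in CAR-1(FL), with 4 and 5 of 5 above 0 (hlh-1 was listed at 0 in CAR-1(dSm)). Those of pharyngeal muscle summed to 7.17 and 6.54 FPKM, with 2 of 3 above 0 in each library and ceh-22 listed at 0 in both. Those of neurons summed to 8.98 FPKM in CAR-1(dSm), with 6 of 7 above 0, and to 1.15 FPKM in CAR-1(FL), with 3 of 7 above 0; rgef-1 was listed at 0 in both. Other tissues' markers summed to 35.1 FPKM in CAR-1(dSm) and 50.9 FPKM in CAR-1(FL) for epidermis, 267 and 271 FPKM for intestine, and 15.3 and 21.8 FPKM for germline, all above 0 except ges-1, listed at 0 in CAR-1(dSm). The part of these marker levels in the results was not tested.

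Troponin and tropomyosin are the calcium switch of striated muscle. Tropomyosin lies along the actin filament and hinders myosin from binding; troponin T ties the troponin complex to tropomyosin, troponin I holds the filament off, and troponin C binds calcium and relieves that hold. In this worm mup-2, unc-27 and pat-10 serve body wall muscle, tnt-4 and tnc-2 serve the pharynx, and lev-11 makes several tropomyosin isoforms from one gene.

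The members' RNA was recovered in both libraries, and no member's level differed between them beyond the deposited bounds. FPKM is the number of fragments per transcript length and mapped fragments, so it compares genes per length. The authors' bounds lie 2 standard errors from each value and cover counting and read assignment in 1 library only. A gene was called measured if its FPKM reached 1 in either library, and differences are log2(FPKM + 1) in CAR-1(dSm) minus CAR-1(FL), which understates the change of low genes. Of the 10 members, 8 were measured and 0 of those differed by at least 1 log2 unit in either direction, whereas 15.2% of all 4361 measured genes were that much higher in CAR-1(dSm) and 14.3% that much lower. No member had deposited intervals that lay apart, against 5.85% of all measured genes. The 8 differences had a median of −0.23 and 6 of them were below 0; over all measured genes the median was −0.07 and 54.5% were below 0.

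Among the troponin T genes, mup-2 had 4.41 FPKM (deposited bounds 2.97 to 5.84) in CAR-1(dSm) and 4.27 FPKM (2.51 to 6.02) in CAR-1(FL), a difference of 0.04. The level of tnt-2 was 3.37 FPKM (2.08 to 4.65) in CAR-1(dSm) and 4.99 FPKM (3.08 to 6.91) in CAR-1(FL), a difference of −0.46. Both genes had overlapping intervals, and which of them stood higher differed between the libraries. The pharyngeal gene tnt-4 had 1.14 FPKM (0.131 to 2.15) in CAR-1(dSm) and 1.504 FPKM (0.0774 to 2.93) in CAR-1(FL). The level of tnt-3 was 0.376 FPKM in CAR-1(dSm) and 0.545 FPKM in CAR-1(FL), below the minimum in both, with lower bounds at 0.

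The troponin I gene unc-27 had the highest level of all members in both libraries, 28.8 FPKM (23.7 to 33.9) in CAR-1(dSm) and 33.8 FPKM (26.9 to 40.6) in CAR-1(FL), a difference of −0.22. These levels exceeded those of 88.5% and 88.9% of the measured genes. The other troponin I genes were far lower: tni-1 had 0.860 FPKM in CAR-1(dSm) and 1.32 FPKM in CAR-1(FL), and tni-3 had 0.204 and 0.312 FPKM. For tni-1 the bounds correspond to 4.0 fragments in each library, and for tni-3 to 1.0 fragment in each, so the expression tables hold almost no information on a difference for either gene.

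The troponin C genes lay on opposite sides of 0. The body wall gene pat-10 had 6.36 FPKM (3.05 to 9.68) in CAR-1(dSm) and 10.4 FPKM (5.21 to 15.6) in CAR-1(FL), a difference of −0.63, the most negative of the 8. The pharyngeal gene tnc-2 had 1.72 FPKM (0 to 3.43) in CAR-1(dSm) and 0.658 FPKM (0 to 1.97) in CAR-1(FL), a difference of 0.71 that rests on 4.0 and 1.0 implied fragments. Their intervals overlapped in both cases. Tropomyosin, lev-11, had 14.4 FPKM (9.47 to 19.3) in CAR-1(dSm) and 14.5 FPKM (9.42 to 19.5) in CAR-1(FL), the smallest difference of all members (−0.01).

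In the order of levels, unc-27 stood above lev-11 beyond the deposited bounds in both libraries, and no other pair of neighbours did. The order from the top was unc-27, lev-11 and pat-10 in both, then mup-2 and tnt-2 in CAR-1(dSm) and tnt-2 and mup-2 in CAR-1(FL), with tnt-3 and tni-3 last in both. The authors' deposited table of their own comparison tested 7 of the members and marked 0 as significant, as it did for all 3278 genes tested. In the authors' deposited table tnt-2 had a log2 fold of −0.54 (p-value 0.363, q-value 0.861), and tnc-2 had a log2 fold of 1.42 (p-value 0.444, q-value 0.923). That comparison is one of 2 libraries, and it merged pat-10, tnt-4 and tni-3 into loci of 689332, 970242 and 5756 bases.

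**Figure D1:**
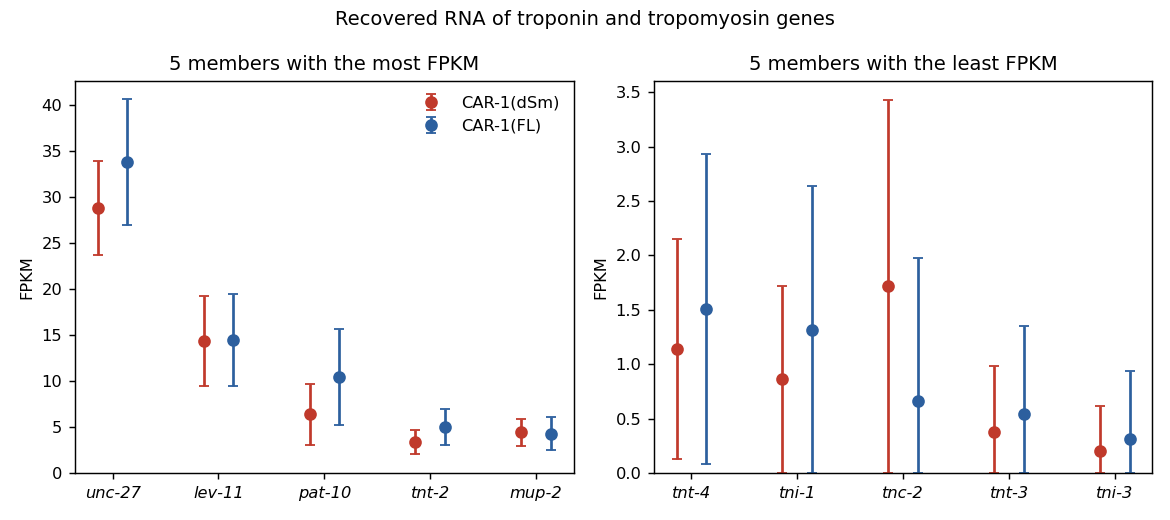
Level of each member in FPKM on linear axes, with CAR-1(dSm) in red to the left of CAR-1(FL) in blue; bars are the authors' lower and upper bounds within 1 library, and the panels have different scales. The bars of both libraries overlap for all 10 genes, and unc-27 stands highest at 28.8 and 33.8 FPKM.

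The listed peaks gave a finer view along each locus. For each peak the authors gave a log2 fold of one library over the other, scaled by total reads; all folds were turned to CAR-1(dSm) over CAR-1(FL). A peak listed for one library can have a fold in favour of the other. Read numbers were recovered from the fold and the authors' p, which exists only for peaks with a fold in their own library's favour: for 20 of 21 such peaks of the CAR-1(dSm) list and 104 of 106 of the CAR-1(FL) list. A single lev-11 peak held 519 reads in CAR-1(dSm), against 431 in CAR-1(FL), while the bounds of the expression tables imply 34.4 and 33.0 fragments for the whole gene. Those bounds also cover read assignment, so peak reads and implied fragments were not compared as counts. The cause of the gap was not tested.

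Most peaks of these genes had fewer reads per total in CAR-1(dSm). In the CAR-1(dSm) list 110 of 131 peaks (84.0%) had a fold below 0, against 29.9% of all peaks of that list. In the CAR-1(FL) list 106 of 116 (91.4%) did, against 50.3% of all. The median fold per gene was below 0 for 9 of the 10 members, against 38.4% of the 9604 genes that had 4 or more peaks, and tnc-2 was the exception. The median of the 10 gene medians was −0.37, and that of all genes was 0.14. For 6 members at least 90% of the listed peaks were lower in CAR-1(dSm), against 4.75% of genes. The folds were small: 3 members (tnt-2, tnt-4 and tni-1) had a median of −0.5 or less, against 7.87% of genes, and 1 (tnc-2) had a median of 0.5 or more, against 22.7%.

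The lists differ in length and in depth per peak, which bears on those backgrounds. Over peaks that overlap a peak of the other list, 9 of 10 members again had a median below 0, against 42.7% of 7241 genes. In the CAR-1(FL) list, the 97 member peaks with a −log10 p of at least 0.1 had a median of 96 reads in CAR-1(dSm), against 88 in CAR-1(FL), while 1000 peaks drawn from the list at the same minimum had medians of 5 and 8. The part of this difference in depth in the shares above was not tested.

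**Figure D2:**
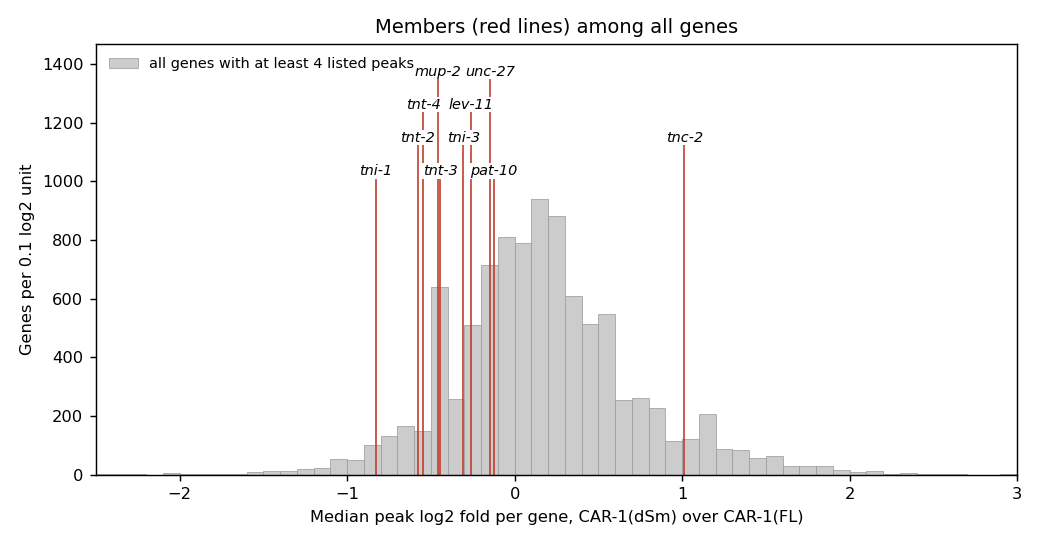
Number of genes per 0.1 log2 unit of the median peak fold, CAR-1(dSm) over CAR-1(FL), for all 9604 genes with at least 4 listed peaks (grey bars), with each member as a red line whose height has no meaning. The lines of 9 members stand left of 0, between tni-1 at −0.83 and pat-10 at −0.12, and tnc-2 stands at 1.01.

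The highest −log10 p values of the members were those of the troponin T genes mup-2 and tnt-2. Of the 110 troponin T peaks of both lists, 101 (91.8%) were lower in CAR-1(dSm), against 38.6% of all 183241 listed peaks. Totals over both lists, here and below, count most regions in each list, so they are not numbers of separate regions. In mup-2 all 27 peaks were lower (median −0.46, with 8.32% of genes below it). They were 14 of the CAR-1(dSm) list and 13 of the CAR-1(FL) list, and each overlapped a peak of the other list. Its peak with the highest −log10 p, at chrX:6409535-6409611 (ce10, minus strand), held 120 reads in CAR-1(dSm), against 160 in CAR-1(FL), a log2 fold of −0.86 with an authors' −log10 p of 6.11. The 95% interval of its ratio, which covers counting error only, was 0.432 to 0.703. The peak at chrX:6408842-6408916 held 123 reads in CAR-1(dSm), against 150 in CAR-1(FL) (−0.73), and that at chrX:6409900-6409976 held 181 and 192 (−0.53). The FPKM of mup-2 was nearly equal in both libraries while no peak was higher in CAR-1(dSm).

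In tnt-2, 26 of 28 peaks were lower in CAR-1(dSm) (median −0.58, with 6.62% of genes below it). Its peak at chrX:8723163-8723221 (minus strand) held 108 reads in CAR-1(dSm), against 146 in CAR-1(FL), a log2 fold of −0.88 with an interval of the ratio of 0.420 to 0.702 and a −log10 p of 5.82. Peaks beside it toward the 5′ end, at chrX:8723222-8723255 and chrX:8723295-8723354, held 84 and 196 reads in CAR-1(dSm) against 115 and 224 in CAR-1(FL). Both were also lower in CAR-1(dSm), with log2 folds of −0.90 and −0.64. The gene's peak most in favour of CAR-1(dSm), at chrX:8722256-8722267, held 48 reads in CAR-1(dSm), against 33 in CAR-1(FL), a log2 fold of 0.10 whose interval, 0.672 to 1.72 as a ratio, includes 1.

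The remaining troponin T genes had fewer reads per peak. In tnt-3, 33 of 38 peaks were lower in CAR-1(dSm) (median −0.44), and no peak for which reads were recovered held more than 29 reads in either library. Its peak at chrX:7943784-7943840 held 15 reads in CAR-1(dSm), against 24 in CAR-1(FL) (log2 fold −1.12, ratio 0.224 to 0.913). Its strongest peak of the CAR-1(dSm) list, at chrX:7941556-7941587, held 16 reads in CAR-1(dSm), against 6 in CAR-1(FL), a log2 fold of 0.97. The lists were not alike here: the median was −0.12 over 20 peaks of the CAR-1(dSm) list and −0.74 over 18 peaks of the CAR-1(FL) list. In tnt-4, 15 of 17 peaks were lower (median −0.55), and that with the highest −log10 p, at chrV:1991725-1991827, held 37 reads in CAR-1(dSm), against 41 in CAR-1(FL) (ratio 0.414 to 1.06). At the 3′ end of tnt-4 the peak at chrV:1989676-1989783 went the other way, with 39 reads in CAR-1(dSm), against 19 in CAR-1(FL), a log2 fold of 0.59 with a ratio interval of 0.851 to 2.76. The locus of tnt-4 lies inside that of Y75B8A.50 in the tables, of 964428 bases, and a peak there belongs to both loci.

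Of the 39 troponin I peaks of both lists, 37 (94.9%) were lower in CAR-1(dSm), against 38.6% of all listed peaks. The most recovered gene, unc-27, had a median of only −0.15, with 13 of 14 peaks lower. Its peak at chrX:8789610-8789646 (plus strand), nearest the 5′ end, stood apart with 70 reads in CAR-1(dSm), against 89 in CAR-1(FL), a log2 fold of −0.79 (ratio 0.417 to 0.7999, −log10 p 3.16). Its deepest peak for which reads were recovered, at chrX:8790182-8790242, held 226 reads in CAR-1(dSm), against 170 in CAR-1(FL), a log2 fold of −0.03. The CAR-1(dSm) list's only peak in that library's favour, at chrX:8789848-8789874, held 85 reads in CAR-1(dSm), against 61 in CAR-1(FL), a log2 fold of 0.03. The gene's fold was thus lower near its 5′ end than at its deepest peak for which reads were recovered.

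The lowest median of all members was that of tni-1, −0.83, with 2.96% of genes below it and all 14 peaks lower in CAR-1(dSm). Its peak at chrX:11377342-11377386 (minus strand) held 39 reads in CAR-1(dSm), against 53 in CAR-1(FL), a log2 fold of −0.89 (ratio 0.348 to 0.834, −log10 p 2.36). That at chrX:11377221-11377256 held 14 reads in CAR-1(dSm), against 24 in CAR-1(FL) (−1.22, ratio 0.205 to 0.863). Both intervals lie below 1. In tni-3, 10 of 11 peaks were lower (median −0.31). Its peak of the CAR-1(FL) list with the highest −log10 p, at chrV:16834937-16834986, held 27 reads in CAR-1(dSm), against 25 in CAR-1(FL) (−0.33). Its peak at chrV:16834564-16834604 held 17 reads in CAR-1(dSm), against 5 in CAR-1(FL), a log2 fold of 1.32 with a ratio interval of 0.885 to 8.67. The locus of tni-3 lies inside that of phy-3 in the tables.

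The troponin C genes had median peak folds of opposite sign, as had their level differences, but the sizes were unlike for pat-10. Its level difference of −0.63 was the most negative of the measured members, while its median peak fold was the smallest in size of all members. In pat-10, 17 of 24 peaks were lower in CAR-1(dSm) and the median was −0.12. Its peak with the highest −log10 p, at chrI:5019796-5019889 (minus strand), held 242 reads in CAR-1(dSm), against 202 in CAR-1(FL), a log2 fold of −0.18 with a ratio interval of 0.728 to 1.07. Its deepest peak for which reads were recovered, at chrI:5019096-5019158, held 293 reads in CAR-1(dSm), against 241 in CAR-1(FL), a log2 fold of −0.16 with a ratio interval of 0.751 to 1.06. The peak most in favour of CAR-1(dSm) in that library's list, at chrI:5019941-5019947, held 83 reads there, against 57 in CAR-1(FL) (0.10). The locus of pat-10 lies inside that of C05D2.16 in the tables, of 645183 bases. All folds of pat-10 lay between −0.28 and 0.11, the narrowest range of the members. In tnc-2 only 1 of 12 peaks was lower, and the median was 1.01, with 92.3% of genes below it.

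The tnc-2 peaks were shallow. That at chrII:10466957-10467020 (plus strand) held 25 reads in CAR-1(dSm), against 9 in CAR-1(FL), a log2 fold of 1.03 with a ratio interval of 0.922 to 4.97. That with the highest −log10 p, at chrII:10467303-10467319, held 10 reads in CAR-1(dSm), against 2 in CAR-1(FL), a log2 fold of 1.88 with an interval of 0.783 to 34.5. Each interval includes 1. The exception, at chrII:10467912-10467960, held 8 reads in CAR-1(dSm), against 9 in CAR-1(FL).

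The tropomyosin gene lev-11 held the deepest peaks among those for which reads were recovered. Of its 62 peaks of both lists, 60 (96.8%) were lower in CAR-1(dSm), against 38.6% of all listed peaks, with a median of −0.26. The peak at chrI:14630672-14630762 (minus strand) held 380 reads in CAR-1(dSm), against 357 in CAR-1(FL), a log2 fold of −0.35 (ratio 0.676 to 0.907, −log10 p 3.01). The deepest of these, at chrI:14622999-14623060, held 519 reads in CAR-1(dSm), against 431 in CAR-1(FL), a log2 fold of −0.18. Of the 2 peaks higher in CAR-1(dSm), that at chrI:14625015-14625041 held 67 reads in CAR-1(dSm), against 39 in CAR-1(FL) (0.34). The FPKM of lev-11 was nearly equal in both libraries. Its share of all implied fragments in CAR-1(dSm) was 0.660 of that in CAR-1(FL) (95% interval 0.397 to 1.098, treating them as counts). Implied fragments come from bounds that also cover read assignment, so this ratio is not a second measure of its level.

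**Figure D3:**
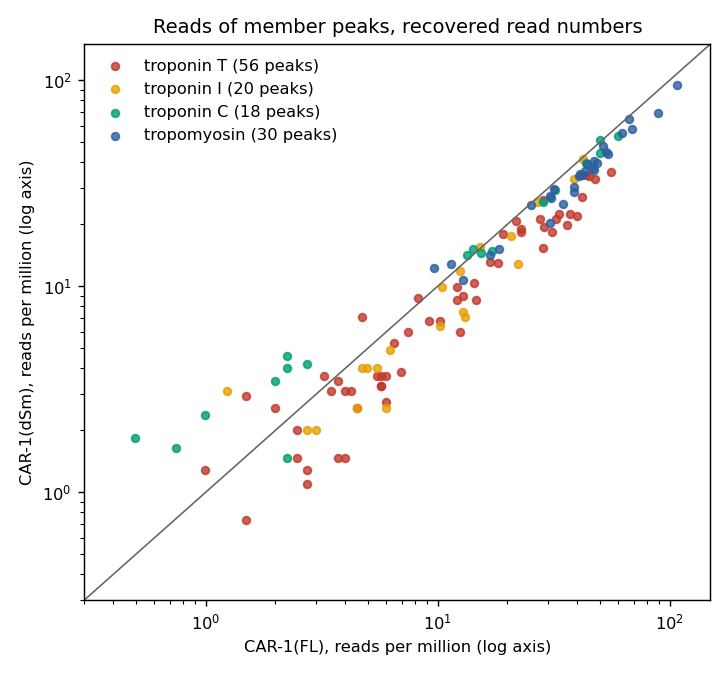
Reads per 1e6 total reads in each member peak with recovered read numbers, CAR-1(dSm) on the vertical and CAR-1(FL) on the horizontal log axis, coloured by role; the line marks equal values. Of these 124 peaks 104 are of the CAR-1(FL) list, with folds in its favour by construction, so the share of points under the line is no result. Troponin T (red), troponin I (yellow) and tropomyosin (blue) lie mostly under the line, and the troponin C points above it at the low end are tnc-2, with at most 25 reads in CAR-1(dSm).

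No member peak had a −log10 p of 3 or more together with a log2 fold of 1 or more in its own library's favour; 1.99% of all peaks of the CAR-1(dSm) list and 0.224% of the CAR-1(FL) list did. With no minimum fold, a rule added after these values were seen, 10 of 116 peaks of the CAR-1(FL) list passed (8.62%), against 0.799% of all peaks of that list, and 0 of 131 of the CAR-1(dSm) list, against 2.75%. The 10 were 5 of tnt-2, 3 of mup-2, and 1 each of unc-27 and lev-11. A −log10 p grows with read number, and the member peaks of the CAR-1(FL) list are deeper than most, as given above. In the CAR-1(dSm) list 15 member peaks with a −log10 p of at least 0.1 had medians of 19 reads in CAR-1(dSm), against 8 in CAR-1(FL), close to those of 1000 drawn peaks, 15 and 6. Neighbouring peaks can share reads, so these counts are not of independent sites.

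Each locus was split at its midpoint, taking the direction from the strand of the peaks; all peaks of a gene lay on 1 strand. Over the peaks of both lists the 5′ side had the lower median fold in 9 of 10 members. It did so in 9 with the CAR-1(dSm) list alone, in 7 with the CAR-1(FL) list alone, and in 6 when only both ends of the locus, without its middle, were compared in the CAR-1(FL) list, all rules added after these values were seen. With both lists the same order was found in 51% of 8167 genes with at least 2 peaks on each side. The share of all genes under the rules with 1 list is not given here, so those counts have no background. The median of the 5′ side minus that of the 3′ side was −0.63 in tnt-2, with 14.2% of genes lower, −0.48 in tnt-3 and −0.44 in tni-1. It was small in mup-2 (−0.10), lev-11 (−0.07) and pat-10 (−0.06), and 0.46 in tnc-2. In tnt-2 the 5′ side had a median of −0.77 over 15 peaks and the 3′ side one of −0.14 over 13. Across its 14 peaks of each list the fold and the distance from the 5′ end had a Spearman correlation of 0.88 in the CAR-1(dSm) list and 0.76 in the CAR-1(FL) list; these peaks share libraries and partly reads, and the lists overlap. No other member had a correlation of that size in both lists, tni-1 being next by the lower of its values with 0.43 and 0.46 over 7 peaks each.

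**Figure D4:**
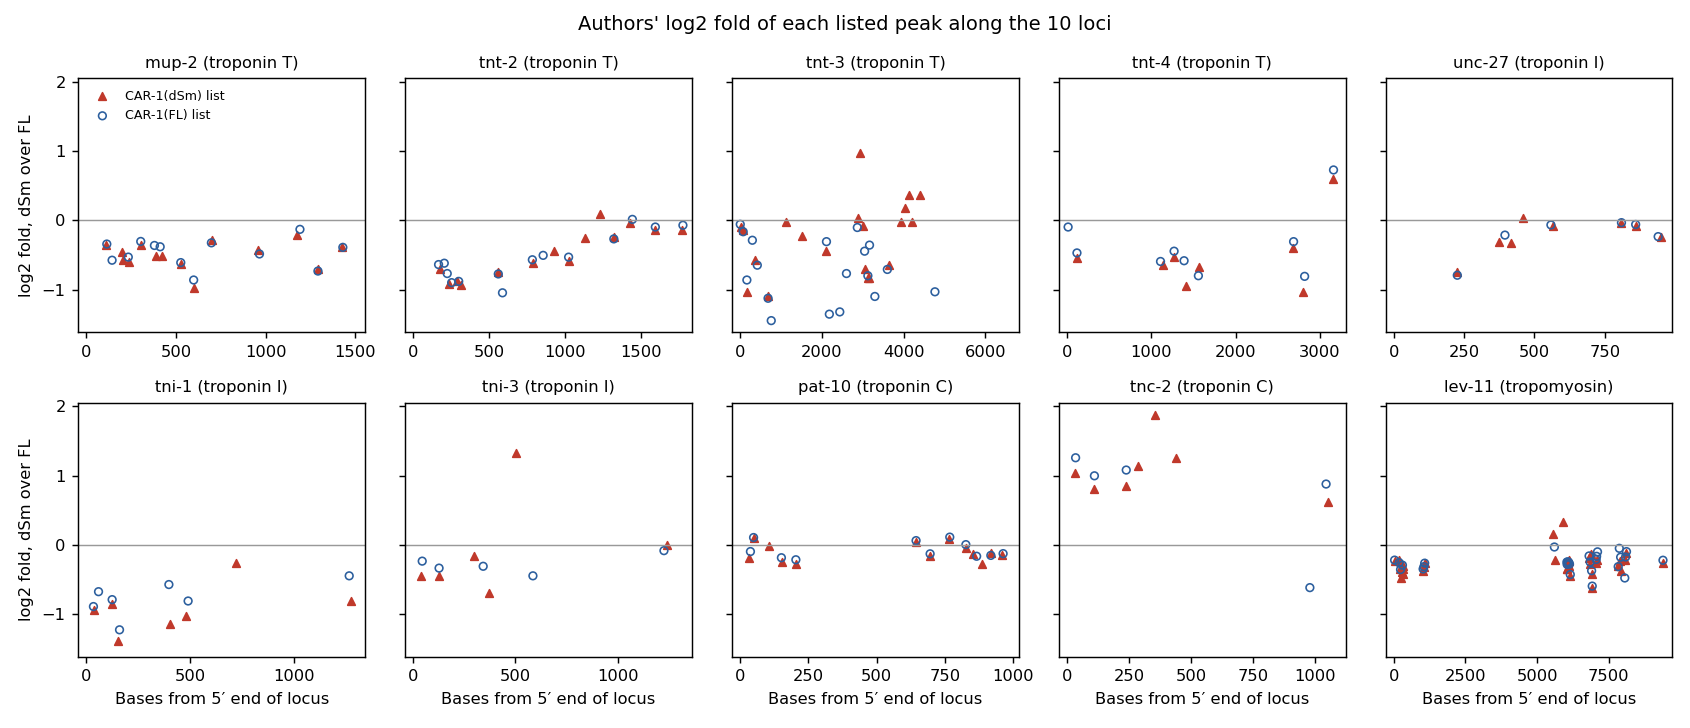
Authors' log2 fold of each listed peak, CAR-1(dSm) over CAR-1(FL), against the distance in bases from the 5′ end of the locus, 1 panel per member; red triangles are peaks of the CAR-1(dSm) list and blue circles those of the CAR-1(FL) list. The tnt-2 folds are near −0.9 toward the 5′ end and near 0 at the 3′ end, mup-2 and tni-1 lie below 0 throughout, and tnc-2 lies above 0 but for 1 peak.

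Peaks were unevenly spread over the loci. They covered 46.4% of the bases of mup-2 (chrX:6408662-6410171) and 10.5% of those of lev-11 (chrI:14621503-14630948). In lev-11 no peak of either list lay in a stretch of 4467 bases at chrI:14625407-14629873, and in tnt-3 (chrX:7937872-7944494) none lay in the last 1849 bases at the 3′ end. The tables list 4 transcription starts for lev-11 and 2 for tnt-2, against 1 for each other member. The exons, introns and UTRs under the peaks were not analysed here.

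Most member peaks were listed in both libraries. Of the member peaks of the CAR-1(dSm) list, 111 of 131 (84.7%) overlapped a peak of the CAR-1(FL) list on the same strand, against 52.3% of all peaks in gene loci. In the other direction 104 of 116 (89.7%) did, against 68%. Of member peaks with a fold in their own library's favour, 47.6% did in the CAR-1(dSm) list and 88.7% in the CAR-1(FL) list. The share of all such peaks is not given here. Member peaks of the CAR-1(FL) list are deeper than most, and the part of depth in these shares was not tested. The share was 33 of 34 and 28 of 28 in lev-11, and 12 of 20 and 12 of 18 in the shallow tnt-3.

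The 5 members on the X chromosome (mup-2, tnt-2, tnt-3, unc-27 and tni-1) all had medians below 0, between −0.15 and −0.83. Over all 1324 X genes the median was 0.26 and the lower quartile −0.11. Of the 5 autosomal members 4 were below 0, and over all 8280 autosomal genes these values were 0.13 and −0.17. Of all genes with 4 or more peaks 38.4% were below 0, a share not given here by chromosome.

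Other genes of actin filaments, thick filaments, calcium handling and muscle attachment were set beside the members. Their expression in tissues other than muscle was not examined. Of 22 other thin filament genes (actins, cofilin, calponin-like proteins, tropomodulins, actin cappers and others) 21 were in the tables and 13 were measured. The list also holds tni-4, a further troponin I gene that is not a member. The measured genes had a median FPKM difference of −0.26. In CAR-1(dSm) 0 stood 1 unit or more above their CAR-1(FL) level and 1 that much below (cpn-1). Over all measured genes 15.2% and 14.3% did. A median peak fold below 0 was found in 8 of 21 of these genes, near the share of 38.4% over all genes. The median of gene medians was 0.09, against 0.14 over all genes. The cofilin gene unc-60 had 10.6 FPKM in CAR-1(dSm) and 16.9 FPKM in CAR-1(FL), with overlapping intervals, and a median peak fold of 0.38. The actin gene act-3 had 9.39 and 6.60 FPKM and a median peak fold of 0.14. The capping protein gene cap-2 had 2.91 FPKM in CAR-1(dSm) and 5.66 FPKM in CAR-1(FL), and the calponin-like cpn-3 had 10.1 and 9.75 FPKM; their intervals overlapped. Their median peak folds were 0.39 and 0.16.

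Of 15 genes of thick filaments and giant muscle proteins 10 were measured and 0 differed by 1 unit in either direction (median −0.25). Over all measured genes 15.2% were that much higher and 14.3% that much lower. Here 12 of 15 had a median peak fold below 0, against 38.4% of all genes, and the median was −0.27. The giant kinase gene unc-89 had 3.11 FPKM (2.81 to 3.41) in CAR-1(dSm) and 5.24 FPKM (4.76 to 5.72) in CAR-1(FL), with intervals apart, and a median peak fold of −0.44 over 245 peaks. For ttn-1, the worm titin, the median over 310 peaks was −0.78. On the other side of 0 by FPKM were myo-1, a pharyngeal myosin, with 0.919 FPKM in CAR-1(dSm) and 0.705 FPKM in CAR-1(FL), and ketn-1, the kettin gene, with 0.548 and 0.420 FPKM, all with overlapping intervals. The median peak fold was 0.09 over 57 peaks in myo-1, but −0.27 over 138 peaks in ketn-1.

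Of 19 genes of calcium handling (calcium being the signal that troponin reads) 8 were measured. In CAR-1(dSm) 1 was 1 unit or more higher and 0 were that much lower, against 15.2% and 14.3% of all measured genes. The 1 was egl-19, the L-type calcium channel, with 6.06 FPKM (3.69 to 8.42) in CAR-1(dSm) and 1.68 FPKM (0.244 to 3.11) in CAR-1(FL), intervals apart, and a median peak fold of 1.14 over 70 peaks. Of the 19 genes, 4 had a median peak fold below 0, against 38.4% of all genes, and the median was 0.38. The ryanodine receptor gene unc-68 had a median peak fold of 0.56 over 178 peaks, the sodium-calcium exchanger gene ncx-2 one of 0.44 over 44, and the calsequestrin gene csq-1 one of −0.27 over 24. By FPKM, however, unc-68 was lower in CAR-1(dSm), with 0.248 FPKM against 0.345 FPKM in CAR-1(FL) and overlapping intervals. Of 12 muscle attachment genes 3 were measured, with 0 at least 1 unit apart. A median peak fold below 0 was found in 11 of 12, against 38.4% of all genes, and the median was −0.15. The talin gene tln-1 had 7.52 FPKM (6.50 to 8.55) in CAR-1(dSm) and 10.6 FPKM (9.03 to 12.2) in CAR-1(FL), with intervals apart. Its median peak fold, however, was 0.02 over 98 peaks. The integrin gene pat-2 had 1.38 FPKM in CAR-1(dSm) and 1.81 FPKM in CAR-1(FL), with overlapping intervals.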

How the data were processed

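RNA of 2 seCLIP-seq libraries was analysed, grouped by sample title. Reads were handled with UMI-tools, cutadapt, STAR and SAMtools on ce10, per the submitters' processing notes; the sources at hand do not state versions, roles, the peak caller or the annotation. Of the 2 peak lists the authors deposited, the values show that each peak has a −log10 p (capped at 400, above 0 only for folds in its library's favour) and a log2 fold over the other library. FPKM values with bounds were deposited per library in the Cufflinks column layout, per the file headers. The authors also deposited a comparison in the Cuffdiff layout with FPKM, log2 fold, p-value, q-value and a test score that was not used, per the file headers.

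Computed here were FPKM differences, implied fragments (from bounds 2 standard errors away) and counts of peaks. Folds are ratios of whole numbers shifted by 0.44, a ratio of totals of 1.36; with the p-values, from Fisher's exact test (any observed or expected number under 5) or else a chi-square test with Yates' correction, it gave the totals and the reads of each peak within a relative tolerance of 0.0001. Totals rest on the best fit among multiples of the smallest whole-number pair. Reads were recovered for 100% (CAR-1(dSm) list) and 99.7% (CAR-1(FL) list) of 1000 peaks drawn per list, and rightly for 500 of 500 simulated peaks; a recovered 1 in the opposite library may be a 0. Ratio intervals are exact binomial at 95%. Coordinates are 1-based. Per-gene medians were taken for genes of 4 or more peaks whose locus does not exceed 100000 bases. Peaks were assigned to loci without strand.

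The members and gene lists were chosen with earlier results of these data known. All members were named; from each other list, those 2 genes that differed most in each direction, given at least 20 implied fragments over both libraries and an FPKM above 0 in both; and for each member the peak with the highest −log10 p in each list (mup-2 and tni-1 have none above 0 in the CAR-1(dSm) list). Genes whose calls make a count of 5 or fewer and further peaks were named after their values were seen. Alternatives covered the pseudocount, the FPKM minimum, the table used, centring, thresholds, the overlap rule and the list. Python 3.11.15, numpy 2.4.6, pandas 2.3.3 and scipy 1.17.1 were used.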

Additional observations from a re-analysis of the deposited data

How the results depend on the processing

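No paired analysis was possible because each group has 1 library and the labels give no replicate numbers; for the same reason no library could be left out. 2 small values changed sign: the median FPKM difference of calcium handling genes, 0.10, was −0.07 at an FPKM of at least 5, −0.03 with no minimum and −0.01 with the authors' comparison table, and that of lev-11, −0.01, was 0.07 when centred. Of all recomputed summary values 96, the calcium handling medians among them, stayed close to the value reported and 18 moved, as follows. For the members, the number 1 unit or more above CAR-1(FL) became 1 (tnc-2) with a pseudocount of 0.1 and with the authors' comparison table. The median of gene medians of the peak fold was −0.58, and that of lev-11 −0.47, when folds were centred on the median of all listed peaks, 0.21. With the peaks of 1 list, or the ends of the locus, 6 to 9 members had the lower fold on the 5′ side, values counted among the 96 and not among the 18. The overlap share of the CAR-1(dSm) list was 47.6% for peaks with a positive fold. Without a minimum fold, chosen after seeing the data, 10 peaks of the CAR-1(FL) list passed. For other thin filament genes the median was −0.41 with a pseudocount of 0.1 and −0.62 with the comparison table; the number higher became 1 with pseudocounts of 0.1 and 0.5, with the comparison table and with centring, and the number lower became 0 at an FPKM of at least 5 and 4 with the comparison table. For thick filament genes the number lower was 1 with pseudocounts of 0.1 and 0.5 and 2 with the comparison table. With that table the number higher was 2 for calcium handling and 1 for attachment. The causes were not tested. Depth limits tnt-3, tni-1, tni-3 and tnc-2, 4 members below 5 implied fragments in both libraries.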
